A study of Mus musculus with 8 samples.

Results

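Mitochondrial beta-oxidation breaks fatty acids down into acetyl-CoA, and 10 of its genes were followed here through 8 RNA-seq libraries of mouse retina, in which 26824 genes were listed. The 10 are the carnitine palmitoyltransferases Cpt1a and Cpt2, the acyl-CoA dehydrogenases Acadvl, Acadl, Acadm and Acads, the trifunctional protein subunits Hadha and Hadhb, the 3-hydroxyacyl-CoA dehydrogenase Hadh, and the oxidoreductase Etfdh. They were chosen from the higher level of Acadm in knockout retina, so the knockout against wild-type values below describe the members and carry no test. All 10 were listed in the count table and all 10 passed the filter on low counts, in which 20167 genes remained. Acadm was the member that stood out: its level was 1.78-fold higher in the knockout libraries, Cpt2 was 1.62-fold higher and Cpt1a was higher in every knockout library, while the other 7 members differed by at most 0.24 on the log2 scale.

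The mice were 1 month old, untreated, and either wild type (3 libraries, WT 1 to WT 3) or knockout for Kv8.2, the modulatory potassium channel subunit of photoreceptors encoded by Kcnv2 (5 libraries, KO 2 to KO 6). Each library held total RNA of 2 retinas of one mouse, so the libraries are separate animals. The comparison asks how the retinal transcriptome of the knockout differs from that of wild type. The submitters left 2 knockout samples out of their own comparison without naming them in the labels used here, so all 5 were used. The allele, the deleted stretch, the strain and the sex of the mice are not given in the sources used here.

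Library totals ran from 17759146 to 25188870 estimated counts. Levels are given as CPM (counts scaled to a common library size by the trimmed mean of M-values), and a limit of 3 counts was 0.119 to 0.169 CPM over the libraries. Kcnv2 itself was read in every library, at 519 to 551 CPM in WT and 398 to 585 CPM in KO, with a log2 fold change of -0.24 (SE 0.14, Benjamini-Hochberg adjusted p = 0.275 by edgeR). KO 2 lay above all 3 WT libraries and the other 4 KO libraries below them. In KO 4 to KO 6 against WT Kcnv2 was called lower, at -0.38 (SE 0.05, adjusted p = 1.16e-04), and in KO 2 and KO 3 it was -0.04 (SE 0.15, not called). Since transcript was read in every library and the groups overlapped, KO below means the libraries labelled KO. KO 4, KO 5 and KO 6 lay close together, with chi-square values per degree of freedom of 5.85 to 6.92 between them, whereas KO 2 and KO 3 differed from them and from each other by 44.0 to 116. The share of counts on mitochondrial genes was 7.09% to 7.92% in WT, 6.52% in KO 2, 5.23% in KO 3 and 3.03% to 3.70% in KO 4 to KO 6. Because the group of KO 4 to KO 6 has no WT library in it, the fold changes are also given for KO 2 and KO 3 alone against WT and for KO 4 to KO 6 alone against WT. The summed level of 7 lens genes was 42040 CPM in KO 3 and at most 1209 CPM in the other libraries. In bulk retina, fewer cells of a type and less RNA per cell cannot be told apart.

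In beta-oxidation a long-chain fatty acid is first joined to coenzyme A and then to carnitine, crosses the inner mitochondrial membrane, and is shortened by acetyl-CoA in repeated rounds of dehydrogenation, hydration, a further dehydrogenation and thiolytic cleavage. CPT1 on the outer membrane is the regulated entry step and is inhibited by malonyl-CoA, the product of acetyl-CoA carboxylase, so that synthesis and oxidation of fatty acids do not run at full rate together. The neural retina obtains much of its energy from glucose, photoreceptors can also oxidise fatty acids, and the pigment epithelium behind them oxidises lipid from shed outer segments and passes ketone bodies on.

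The start regions of the genes the results turn on are printed here, since the levels of Acadm, Cpt2 and Cpt1a were higher in KO and that of Acadvl was not. Each is the 250 bases before the RefSeq start (assembly GRCm38.p6), 5′ to 3′ on the gene's strand. Capitals mark exact matches, on either strand, to the motifs searched.
Acadm: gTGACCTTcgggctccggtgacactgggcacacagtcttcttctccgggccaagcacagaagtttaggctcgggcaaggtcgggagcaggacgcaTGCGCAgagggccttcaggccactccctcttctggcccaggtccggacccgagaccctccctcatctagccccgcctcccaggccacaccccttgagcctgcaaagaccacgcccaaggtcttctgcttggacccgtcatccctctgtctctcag
Acadvl: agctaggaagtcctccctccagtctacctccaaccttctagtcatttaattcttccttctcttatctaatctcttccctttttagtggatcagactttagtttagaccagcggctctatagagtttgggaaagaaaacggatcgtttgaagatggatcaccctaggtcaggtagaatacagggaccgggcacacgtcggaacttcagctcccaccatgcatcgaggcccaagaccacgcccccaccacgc
Cpt2: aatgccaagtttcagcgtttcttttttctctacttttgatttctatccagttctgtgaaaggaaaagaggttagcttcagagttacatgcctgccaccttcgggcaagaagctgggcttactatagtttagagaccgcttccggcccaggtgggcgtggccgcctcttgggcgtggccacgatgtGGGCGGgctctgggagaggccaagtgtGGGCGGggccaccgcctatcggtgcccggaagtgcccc
Cpt1a: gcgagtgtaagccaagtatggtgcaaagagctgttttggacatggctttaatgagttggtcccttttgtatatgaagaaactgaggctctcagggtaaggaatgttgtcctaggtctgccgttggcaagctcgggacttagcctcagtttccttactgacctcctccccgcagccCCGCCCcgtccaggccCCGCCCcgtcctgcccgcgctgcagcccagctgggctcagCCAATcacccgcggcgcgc
These windows lie at chr3:153944644-153944893 on the minus strand for Acadm, chr11:70015429-70015678 on the minus strand for Acadvl, chr4:107923590-107923839 on the minus strand for Cpt2 and chr19:3323051-3323300 on the plus strand for Cpt1a.

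All 10 members had a RefSeq start region, and 6 motifs were searched on both strands of the 250 bases before and 50 bases after the start. The GC box GGGCGG was present in 8 of the 10 members and in 35.7% of 32851 mouse start regions of that length. The CCAAT box was present in 3 members and in 37.4% of all start regions. TGCGCA, the core of the NRF1 site, was present in 2 members, Acadm and Etfdh, and in 7.76% of all start regions. AAGGTCA, a half-site read by oestrogen-related receptors and other nuclear receptors, was present in 1 member, Acadm, at the far end of the window and on the opposite strand, and in 4.72% of all start regions. The cyclic AMP response element TGACGTCA was found in 0 members and in 1.79% of all start regions. DR1, the paired nuclear receptor half-site AGGNCA with 1 base between its copies, was found in 0 members and in 0.381%. Its half-site shares letters with AAGGTCA. The Acadvl window held none of the 6, which says only that these letters are not in it. The starts of Hadha and Hadhb lie 273 bases apart on opposite strands, so their windows overlap and are not separate observations.

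Entry into the mitochondrion comes first. CPT1A, the liver-type carnitine palmitoyltransferase of the outer membrane, commits long-chain fatty acids to oxidation. Its gene (ENSMUSG00000024900, chr19:3322334-3385733 in GRCm38) was at 175, 185 and 167 CPM in WT 1, WT 2 and WT 3, and at 235, 189, 229, 232 and 250 CPM in KO 2 to KO 6. All 5 KO libraries lay above all 3 WT libraries, although KO 3 was only just above WT 2. The means were 176 ± 8.90 CPM (SD, n = 3) and 227 ± 22.9 CPM (SD, n = 5), a log2 fold change of 0.37 (SE 0.11), and Cpt1a was not past the threshold, an adjusted p of 0.05 by edgeR. Without KO 3 it was past it, at 0.44, as it was with DESeq2, limma voom or a stricter filter on low counts. With GC content corrected it was not, at 0.28 (SE 0.09), and over 31 alternatives it was called in 8. The value was 0.27 (SE 0.12) with KO 2 and KO 3 alone against WT and 0.44 (SE 0.06) with the other 3 KO libraries.

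CPT2 on the inner membrane passes the acyl group from carnitine back to coenzyme A. Its gene (ENSMUSG00000028607, chr4:107903981-107923610) was at 10.8, 10.4 and 11.3 CPM in WT and at 15.7, 16.3, 18.5, 19.8 and 17.4 CPM in KO 2 to KO 6. The groups did not overlap, and the lowest KO library was well above the highest WT library. The means were 10.8 ± 0.471 CPM (SD, n = 3) and 17.5 ± 1.67 CPM (SD, n = 5), a log2 fold change of 0.70 (SE 0.12). It was 0.56 (SE 0.13) in KO 2 and KO 3, where the gene was not past the threshold, and 0.79 (SE 0.10) in KO 4 to KO 6. Leaving out any single library gave 0.65 to 0.73, and leaving out WT 1, WT 2 or WT 3 put Cpt2 above the adjusted p threshold. With GC content corrected the log2 fold change was 0.57 (SE 0.09), and Cpt2 was called. Since Cpt2 differed by more than Cpt1a, the ratio of Cpt1a to Cpt2 counts within a library was 16.3 ± 1.52 in WT and 13.0 ± 1.57 in KO, with overlapping ranges of 14.8 to 17.8 and 11.6 to 15.0.

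**Figure D1:**
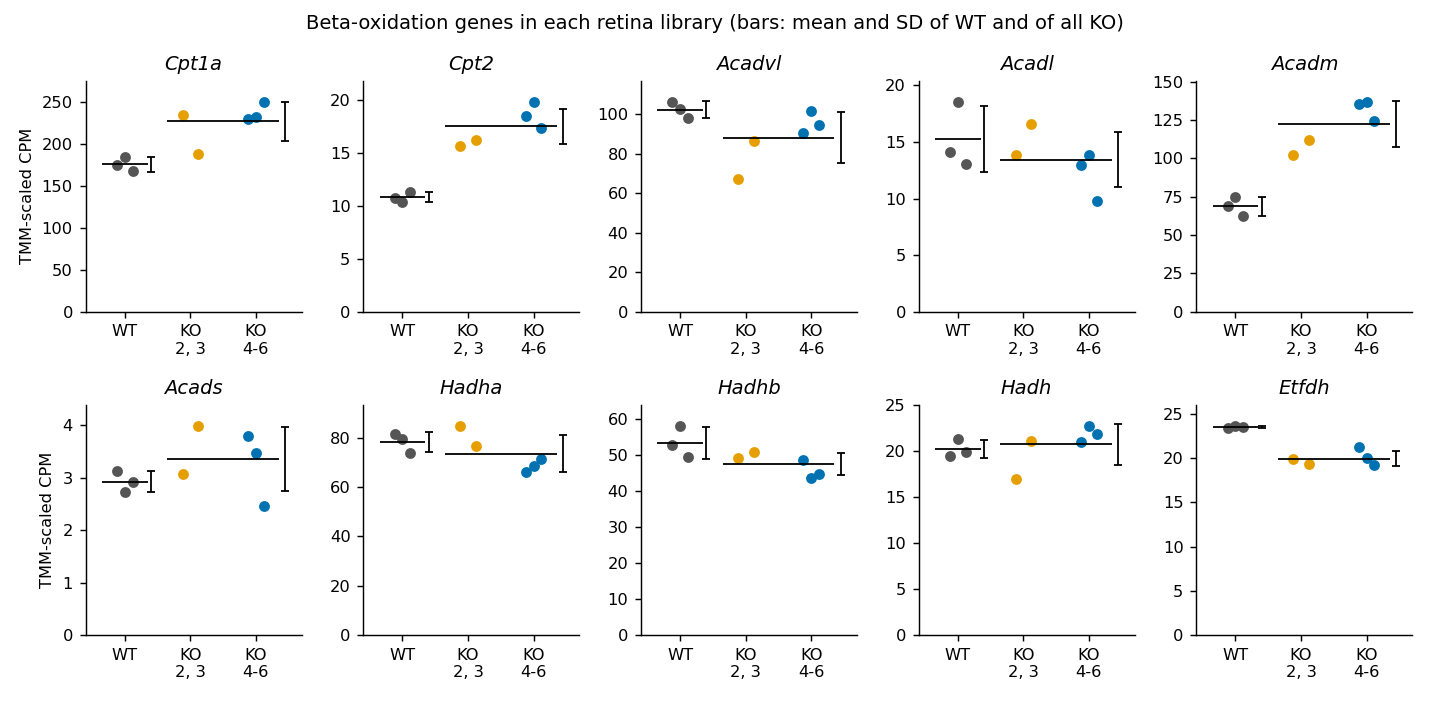
Level of each of the 10 genes in every library, in TMM-scaled CPM on axes that start at 0. Points are libraries (WT, KO 2 and KO 3, KO 4 to KO 6) and the lines and bars are the mean and SD of the 3 WT and of all 5 KO libraries. Acadm, Cpt2 and Cpt1a are higher in every KO library than in any WT library, Etfdh is lower in every one, and the other 6 overlap.

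The acyl-CoA dehydrogenases carry out the first oxidation of each round and divide the fatty acids among them by chain length. ACADM takes the medium-chain acyl-CoAs, and its deficiency is the most common inherited disorder of this pathway in people. Acadm (ENSMUSG00000062908, chr3:153922357-153944632) had 1255, 1587 and 1410 counts in WT, or 68.8, 74.6 and 62.6 CPM. KO 2 to KO 6 had 2357, 2349, 2748, 2674 and 2729 counts, or 102, 112, 135, 137 and 124 CPM. Every KO library was above every WT library, KO 2 and KO 3 less so than KO 4 to KO 6. The means were 68.7 ± 6.01 CPM (SD, n = 3) and 122 ± 14.9 CPM (SD, n = 5), a log2 fold change of 0.83 (SE 0.12). It was 0.64 (SE 0.10) for KO 2 with KO 3 and 0.95 (SE 0.07) for KO 4 to KO 6. Leaving out any single library gave 0.77 to 0.90, which describes the value and is no test of it, since these libraries chose the gene. Of the 31-base stretches of its transcript, 5.98% also occur in Gm5131, a gene that is not in the count table.

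The other 3 dehydrogenases did not show this. Acadvl encodes the very-long-chain enzyme of the inner membrane (ENSMUSG00000018574, chr11:70010183-70015411) and was at 106, 103 and 98.0 CPM in WT and 67.2, 86.6, 90.8, 102 and 94.8 CPM in KO 2 to KO 6. KO 5 lay among the WT libraries and the other 4 KO libraries lay below them, KO 2 farthest. The log2 fold change was -0.21 (SE 0.12), with -0.41 (SE 0.12) for KO 2 with KO 3 and -0.09 (SE 0.06) for KO 4 to KO 6. It was -0.37 once GC content was corrected for, and there Acadvl was past the threshold as lower. Its exons overlap those of Dvl2 on the opposite strand, and the strand setting of the counting is not given in the sources used here, so a share of its counts is uncertain.

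Acadl, the long-chain enzyme (ENSMUSG00000026003, chr1:66830839-66863277), was at 14.1, 18.5 and 13.1 CPM in WT and 13.9, 16.6, 13.0, 13.9 and 9.79 CPM in KO, with overlapping groups and a log2 fold change of -0.18 (SE 0.18), which was -0.00 (SE 0.18) for KO 2 with KO 3 and -0.31 (SE 0.16) for KO 4 to KO 6. Acads, the short-chain enzyme (ENSMUSG00000029545, chr5:115110299-115119346), was the least abundant member, with 54 to 84 counts per library. It was at 3.12, 2.73 and 2.93 CPM in WT and 3.08, 3.99, 3.79, 3.48 and 2.46 CPM in KO, and its log2 fold change of 0.20 (SE 0.20) was no larger than its error. It was 0.27 (SE 0.24) for KO 2 with KO 3 and 0.16 (SE 0.22) for the other 3. KO 3 had the highest Acads level and KO 6 the lowest of all 8 libraries.

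Shares within a library do not depend on the scaling between libraries. Acadm made up 35.8%, 37.6% and 35.5% of the counts of the 4 genes in WT and 54.9%, 51.0%, 55.7%, 53.5% and 53.7% in KO 2 to KO 6. Acadvl made up 54.2% ± 2.11 (SD, n = 3) in WT and 38.8% ± 1.99 (SD, n = 5) in KO. Acadm was therefore second to Acadvl in all 3 WT libraries and ahead of it in all 5 KO libraries. The ratio of Acadm to Acadvl counts was 0.647, 0.726 and 0.639 in WT and 1.52, 1.29, 1.49, 1.34 and 1.31 in KO 2 to KO 6. KO 2 and KO 3 did not stand apart from KO 4 to KO 6 in this ratio. It shows unequal change of the 2 genes and not which of them moved. Acadl held 8.02% ± 1.13 of the counts in WT and 6.0% ± 1.45 in KO, and Acads 1.55% ± 0.156 and 1.49% ± 0.293.

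**Figure D2:**
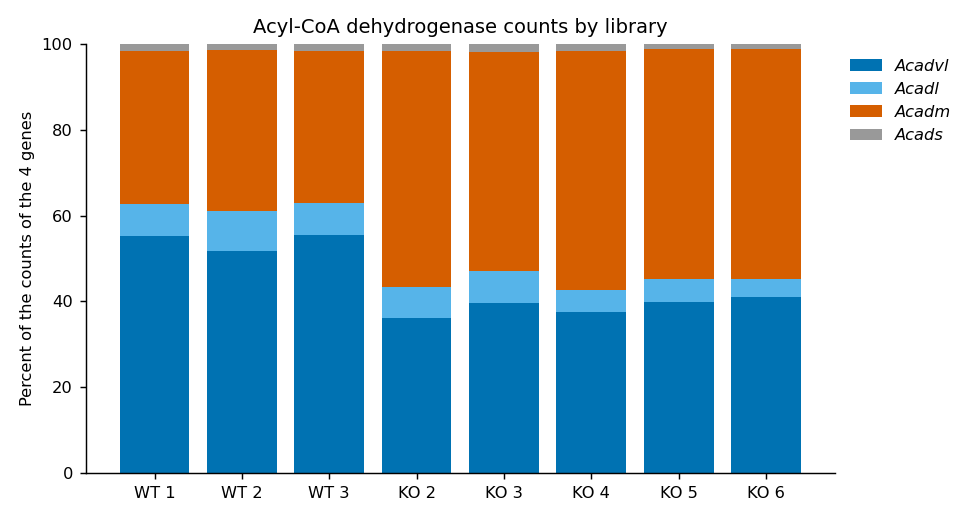
Share of the summed counts of Acadvl, Acadl, Acadm and Acads that each gene held, in percent, in each of the 8 libraries. The Acadm share is 35.5% to 37.6% in the WT libraries and 51.0% to 55.7% in the KO libraries.

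The later steps of the spiral and the outlet for its electrons did not follow Acadm. Hadha encodes the hydratase and long-chain hydroxyacyl-CoA dehydrogenase subunit of the trifunctional protein (ENSMUSG00000025745, chr5:30118304-30155162). It was at 81.4, 79.3 and 73.9 CPM in WT and 84.8, 76.5, 66.1, 68.4 and 71.3 CPM in KO 2 to KO 6. KO 2 was the highest of all libraries while KO 4 to KO 6 lay below every WT library. The log2 fold change was -0.09 (SE 0.09), of opposite sign in KO 2 and KO 3 (0.05, SE 0.09) and in KO 4 to KO 6 (-0.18, SE 0.06). Its exons overlap those of Garem2 on the other strand.

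Hadhb encodes the thiolase subunit of the same complex (ENSMUSG00000059447, chr5:30155248-30184593). Its levels were 52.6, 58.0 and 49.3 CPM in WT and 49.1, 50.6, 48.6, 43.5 and 44.7 CPM in KO, where only KO 3 reached above the lowest WT library. The log2 fold change of -0.17 (SE 0.09) was -0.09 (SE 0.10) for KO 2 with KO 3 and -0.21 (SE 0.08) for KO 4 to KO 6, and it became 0.15 with GC content corrected (its transcript is 39.1% GC). Reads of Hadhb are also uncertain because 23.3% of its 31-base stretches occur in other transcripts, Gm13910 and Gm9108 among them. The subunits stayed in a similar proportion: the ratio of Hadha to Hadhb counts was 1.37 to 1.55 in WT and 1.36 to 1.73 in KO.

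Hadh, the soluble 3-hydroxyacyl-CoA dehydrogenase for shorter chains (ENSMUSG00000027984, chr3:131233419-131272101), was at 19.5, 21.4 and 19.98 CPM in WT and 17.0, 21.2, 21.0, 22.8 and 21.9 CPM in KO 2 to KO 6. KO 2 was the lowest of all libraries and the other 4 KO libraries lay in or above the WT range. The log2 fold change of 0.03 (SE 0.12) was -0.09 (SE 0.13) for KO 2 with KO 3, against 0.12 (SE 0.08) for KO 4 to KO 6.

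Etfdh encodes the oxidoreductase of the inner membrane that hands electrons from the acyl-CoA dehydrogenases to ubiquinone (ENSMUSG00000027809, chr3:79603788-79629500). It was at 23.4, 23.6 and 23.5 CPM in WT and at 19.8, 19.4, 21.3, 20.03 and 19.2 CPM in KO 2 to KO 6. It was the only member with every KO library below every WT library, by a small step: the means were 23.5 ± 0.123 CPM (SD, n = 3) and 19.9 ± 0.816 CPM (SD, n = 5). The difference of -0.24 (SE 0.09) on the log2 scale was -0.26 (SE 0.10) for KO 2 with KO 3 and -0.21 (SE 0.08) for KO 4 to KO 6, and it was -0.08 with GC content corrected. An antisense partner, 4930579G24Rik, overlaps its exons and was at 6.36 to 6.68 CPM in WT and 3.55 to 6.28 CPM in KO. Without a stated strand setting, a share of the counts of both genes is uncertain. The ratio of Acadm to Etfdh counts was 2.92 ± 0.245 in WT and 6.12 ± 0.655 in KO.

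Over all 8 libraries 2 of the 10 members were called higher in KO, Acadm and Cpt2, and 0 were called lower, at an adjusted p under 0.05 by edgeR over all genes. Of all genes tested, 4.74% were called higher and 2.84% lower. At an unadjusted p under 0.05, 3 members were higher and 1 was lower, where 15.1% and 12.2% of all genes were. DESeq2 called 3 higher and 0 lower, where 11.8% and 6.42% of the genes it gave an adjusted p were called. Limma voom called 3 higher and 2 lower, where 20.3% and 20.6% of all genes were. KO levels lay wholly above WT for 3 members and wholly below for 1, against 10.8% and 10.1% of all genes. In KO 2 and KO 3 against WT, Acadm was the 1 member called higher, with 0 called lower, where 0.624% of all genes were called higher and 0.267% lower. At an unadjusted p under 0.05, 2 members were higher and 2 lower there, where 10.1% and 8.82% of all genes were. In KO 4 to KO 6 against WT, 3 members were called higher (Acadm, Cpt2 and Cpt1a) and 3 lower (Hadha, Hadhb and Etfdh), where the shares of all genes were 22.3% and 20.5%. With GC content corrected, Acadm and Cpt2 were called higher and Acadvl lower, where the shares were 4.23% and 2.82%. Nothing is read from these counts, since the members were chosen on this contrast.

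The members did not move as a group. Their median log2 fold change was -0.03 (range -0.24 to 0.83), against 0.00 over all genes tested, and 5 of the 10 were above 0. Without Acadm the median of the other 9 was -0.09. The median of the 10 was 0.02 with KO 2 and KO 3 alone and likewise 0.02 with KO 4 to KO 6 alone. The 3 genes with the highest values, Acadm, Cpt2 and Cpt1a, had log2 fold changes above those of 96.2%, 94.6% and 83.5% of all genes, and the place of Acadm follows from its choice on this contrast. The 3 with the lowest, Etfdh, Acadvl and Acadl, were above 26.3%, 28.4% and 31.3% of all genes, inside the middle of the distribution.

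**Figure D3:**
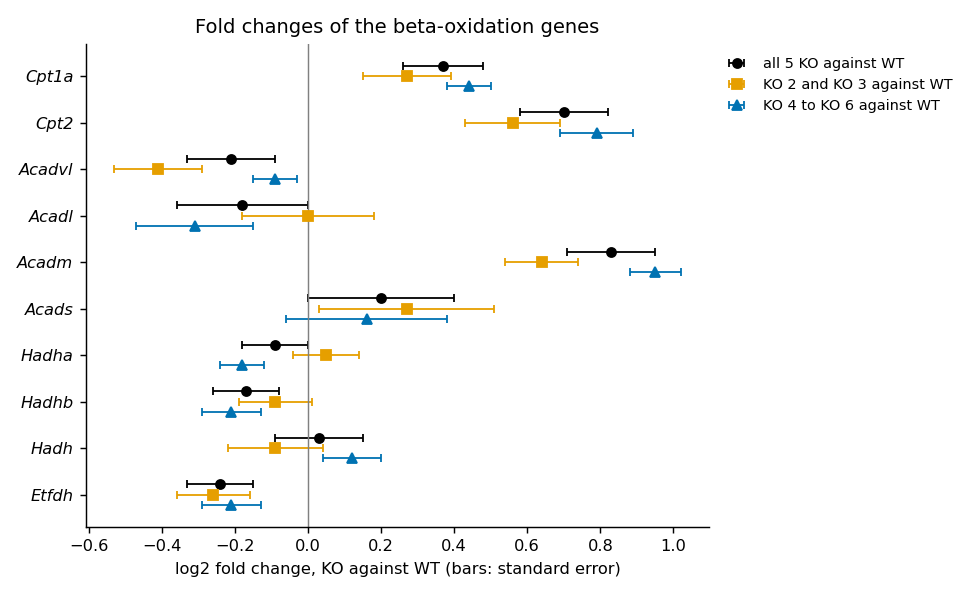
Log2 fold change of each of the 10 genes, KO against WT, with its standard error as the bar, in all 5 KO libraries, in KO 2 and KO 3 alone, and in KO 4 to KO 6 alone. Acadm, Cpt2 and Cpt1a are above 0 in all 3 comparisons, and Hadha and Hadh change sign between KO 2 and KO 3 and KO 4 to KO 6.

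Levels can be compared between genes only per length. In CPM per kilobase of transcript, the order in WT was Acadvl at 47.2 ± 1.92, Cpt1a at 40.7 ± 2.06 and Acadm at 33.6 ± 2.93 (SD, n = 3). Below them came Hadhb at 26.0 ± 2.16, Hadha at 19.5 ± 0.961, Hadh at 11.3 ± 0.532 and Etfdh at 9.89 ± 0.0518. Acadl at 7.96 ± 1.51, Cpt2 at 4.56 ± 0.198 and Acads at 1.57 ± 0.106 were lowest, 30.1-fold below Acadvl at the end of the order. No neighbours in this order overlapped over the 3 WT libraries. In KO the means per kilobase of transcript were 59.6 ± 7.30 for Acadm, 52.6 ± 5.31 for Cpt1a and 40.7 ± 5.98 for Acadvl (SD, n = 5), and the KO ranges of Acadm and Cpt1a, and of Cpt1a and Acadvl, overlapped. Cpt2 at 7.39 ± 0.706 and Acadl at 7.00 ± 1.27 also overlapped in KO. Per kilobase of coding sequence 7 of the 10 ranks in WT were the same, and the first 3 means read Cpt1a, Acadm and Acadvl in both groups. Acadm and Acadvl overlapped in WT on that length, and Cpt1a at 97.9 ± 9.89 and Acadm at 96.7 ± 11.8 overlapped in KO. The mean of Cpt2 in KO was then below that of Acadl, at 8.88 ± 0.848 and 10.4 ± 1.88, again with overlapping libraries. The order of the means of Acadm, Cpt1a and Acadvl therefore rests on the length used in WT and in KO, and so does that of Cpt2 and Acadl in KO.

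The genes whose levels followed Acadm most closely over the 8 libraries were sought by the root mean square difference of centred log2 CPM. They were Tubb2b, a beta-tubulin (0.082), Myo5b, a vesicle motor myosin (0.085), Ube2l6, an interferon-induced conjugating enzyme (0.089), Tnc, the matrix protein tenascin C (0.090), and Irs1, an insulin receptor substrate (0.096). Their log2 fold changes of 0.78 to 0.95 follow from this choice, since the 8 libraries hold the KO and WT contrast that chose Acadm, and so does a high rank for any gene with a similar difference. Cpt2, at 0.124, ranked 18 of 20166 genes in likeness to Acadm and Cpt1a, at 0.265, ranked 1208. The other 7 members ranked 5395 or lower.

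Around the 10 members, 88 further genes of fatty acid metabolism were listed by role, of which 83 were in the table and 79 were tested. Of these, 8 were called higher in KO and 2 lower, where 4.74% and 2.84% of all genes were, and DESeq2 called 11 and 2, where 11.8% and 6.42% were, the lower ones being Ppargc1b and Fabp3. Their median log2 fold change was 0.09. The adjusted p-values below come from edgeR, adjusted by Benjamini-Hochberg over all 20167 genes. The calls moved with the libraries used. By edgeR 0 of these genes were called without WT 1, WT 2 or WT 3, where 13 to 20 had an unadjusted p under 0.05, 2 were called without KO 4 or KO 5 and 4 without KO 6, while 15 and 16 were called without KO 2 and KO 3. The calls over all genes moved alike, from 1529 to between 132 and 199 without a WT library, to 365, 388 and 531 without KO 4, KO 5 and KO 6, and to 2781 and 3992 without KO 2 and KO 3. In KO 2 and KO 3 against WT only Srebf1 was called higher and only Ppargc1b lower, where 0.624% and 0.267% of all genes were. In KO 4 to KO 6 against WT 23 were called higher and 14 lower, where 22.3% and 20.5% of all genes were.

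The other genes of the oxidation route gave no call by edgeR over all 8 libraries, and 5 of 21 were called higher and 1 lower in KO 4 to KO 6 alone, where 22.3% and 20.5% of all genes were. The limma voom counts below stand beside 20.3% of all genes called higher and 20.6% lower. For the carnitine shuttle 0 of 5 were called, with 0 at an unadjusted p under 0.05, 0 by DESeq2 and 2 by limma voom, both higher. Slc25a20, the carrier that exchanges acylcarnitine for carnitine across the inner membrane, had a log2 fold change of 0.37 (SE 0.17, adjusted p = 0.193), with 10.1 to 11.3 CPM in WT, 10.2 and 11.6 CPM in KO 2 and KO 3, but 15.7 to 15.9 CPM in the other 3. With those 3 alone its log2 fold change was 0.57 (SE 0.10, adjusted p = 6.63e-04), and Cpt1c, the brain-type palmitoyltransferase, was the other shuttle gene called there, at 0.28 (SE 0.07, adjusted p = 8.98e-03). For the remaining spiral enzymes 0 of 10 were called, with 0 at an unadjusted p under 0.05, 0 by DESeq2 and 3 by voom (2 higher, 1 lower). Acaa2, the thiolase for shorter chains, was at 0.34 (SE 0.22, adjusted p = 0.347), at -0.12 (SE 0.19) in KO 2 and KO 3 alone, and called higher in KO 4 to KO 6 alone at 0.59 (SE 0.14, adjusted p = 4.59e-03). Eci1, an enoyl-CoA isomerase, was also called there, at 0.35 (SE 0.10, adjusted p = 0.0129). Echs1, the short-chain hydratase, was at -0.18 (SE 0.09, adjusted p = 0.221), and at -0.14 and -0.20 in the 2 subsets of KO libraries. For the electron transfer flavoprotein, which takes electrons from ACADM and its relatives to ETFDH, Etfa was at 0.13 (SE 0.10, adjusted p = 0.392) and Etfb at 0.27 (SE 0.14, adjusted p = 0.224). In KO 4 to KO 6 alone Etfa was called higher at 0.22 (SE 0.07, adjusted p = 0.0240) and Etfb was at 0.20, while in KO 2 and KO 3 alone they were at 0.01 and 0.39 and not called. Over all libraries 0 of this pair were called, with 0 at an unadjusted p under 0.05, 0 by DESeq2 and 1 by voom. With GC content corrected Etfa was at 0.25 and Etfb at 0.07, and 49.9% of the 31-base stretches of Etfb occur in other transcripts. The 4 branched-chain and glutaryl-CoA dehydrogenases and the 4 ketone body enzymes also gave 0 calls by edgeR and DESeq2, and each list had 1 gene called lower by voom. At an unadjusted p under 0.05 the first list had 0 genes and the ketone body list 1, a lower one. With KO 4 to KO 6 alone Acadsb, the short branched-chain dehydrogenase, was called lower at -0.43. There the ketone body list, which is outside the count of 21, had 1 gene called in each direction. With GC content corrected over all libraries, Slc25a20 was at 0.38, Cpt1c at -0.03, Acaa2 at 0.20, Eci1 at 0.07 and Acadsb at -0.04, none called.

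The regulators of the pathway gave calls in both directions. Among 11 tested, 1 was called in each direction over all libraries, where 4.74% of all genes were called higher and 2.84% lower. With KO 4 to KO 6 alone 5 were called higher and 3 lower, where the shares were 22.3% and 20.5%. Ppargc1b, a coactivator of mitochondrial genes, fell: it was at 52.7, 46.5 and 59.1 CPM in WT and 33.7, 28.2, 31.4, 33.2 and 45.1 CPM in KO, with every KO library below every WT library and KO 6 nearest to them. The log2 fold change was -0.62 (SE 0.14, adjusted p = 0.0325), and it was -0.77 in KO 2 and KO 3 alone and -0.52 in KO 4 to KO 6 alone, called in both. Its relative Ppargc1a was at -0.11 (SE 0.14, adjusted p = 0.650), and it turned between the subsets: it was 0.13 (SE 0.11, not called) in KO 2 and KO 3 and -0.28 (SE 0.07, adjusted p = 4.13e-03) in KO 4 to KO 6. Ppara, the nuclear receptor that switches on beta-oxidation genes in fasting liver, was at -0.33 (SE 0.12, adjusted p = 0.119). It was -0.26 (SE 0.14, not called) in KO 2 and KO 3 and was called lower in KO 4 to KO 6, at -0.36 (SE 0.12, adjusted p = 0.0255). Esrra was at 0.03 (SE 0.10, adjusted p = 0.871), and at -0.07 and 0.11 in the same subsets, called in neither. Of the PPAR target genes 0 of 7 tested were called by edgeR, with 1 higher at an unadjusted p under 0.05, 1 by DESeq2 and 1 by voom. Among them Pdk4, a kinase that restrains pyruvate oxidation, was at 0.598 CPM in WT and 0.430 CPM in KO, a log2 fold change of -0.48 (SE 0.39, adjusted p = 0.461), with -0.45 and -0.48 in the subsets.

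Calls for higher levels were most frequent in the fatty acid synthesis list, the opposing pathway. Of its 12 genes 5 rose and 0 fell by edgeR over all libraries (0 lower at an unadjusted p under 0.05 and by DESeq2, 2 by voom), where 4.74% of all genes were called higher and 2.84% lower, and the list's median log2 fold change was 0.34, or 0.33 in KO 2 and KO 3 alone. Srebf1, the transcription factor that drives lipogenic genes, was at 58.9, 58.8 and 62.8 CPM in WT and 92.1, 83.3, 149, 153 and 132 CPM in KO 2 to KO 6, with a log2 fold change of 1.02 (SE 0.20, adjusted p = 0.0207). Fasn, the fatty acid synthase, was at 113 ± 6.53 CPM (SD, n = 3) in WT and 208 ± 49.0 CPM (SD, n = 5) in KO, a log2 fold change of 0.88 (SE 0.18, adjusted p = 0.0254). For both genes KO 2 and KO 3 lay between WT and KO 4 to KO 6: with KO 2 and KO 3 alone the log2 fold changes were 0.54 and 0.45, against 1.28 and 1.12 with KO 4 to KO 6 alone. The desaturase genes Scd1 at 0.62 (SE 0.16, adjusted p = 0.0443), Scd2 at 0.59 (SE 0.13, adjusted p = 0.0269) and Fads2 at 0.60 (SE 0.12, adjusted p = 0.0189) also rose. In KO 2 and KO 3 alone these 3 were at 0.52, 0.73 and 0.62, and in KO 4 to KO 6 alone at 0.68, 0.50 and 0.59. Scd1 was not called under library-size scaling or with no filter on low counts. Leaving out 1 library, Srebf1 and Fads2 were called in 5 of 8 fits, Scd2 in 3, and Fasn and Scd1 in 2. With GC content corrected Srebf1 was at 0.76, Fasn at 0.63, Scd1 at 0.66, Scd2 at 0.56 and Fads2 at 0.43, each still called. All 5 were higher in every KO library than in any WT library. In KO 4 to KO 6 alone 6 of the 12 were called higher and 3 lower, where 22.3% and 20.5% of all genes were. The lower 3 were the fatty acid elongase genes Elovl2 at -0.21 (SE 0.06), Elovl4 at -0.30 (SE 0.06) and Elovl6 at -0.27 (SE 0.07). They were at 0.10, 0.11 and 0.15 in KO 2 and KO 3 and not called there. Over all libraries these 3 were at -0.08, -0.13 and -0.10, and at 0.06, 0.03 and 0.04 with GC content corrected.

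Acaca, the acetyl-CoA carboxylase whose product restrains CPT1, was the regulator called higher. It was at 118, 109 and 121 CPM in WT and 181, 134, 176, 162 and 164 CPM in KO, with a log2 fold change of 0.50 (SE 0.11, adjusted p = 0.0287), or 0.44 in KO 2 and KO 3 and 0.54 in KO 4 to KO 6, and 33.4% of its 31-base stretches occur in other transcripts. Hsd17b4, the multifunctional enzyme of peroxisomal beta-oxidation, was the 1 of 12 genes of that route called, at 0.38 (SE 0.08, adjusted p = 0.0285), with 0.33 and 0.42 in the same subsets. Of all genes 4.74% were called higher and 2.84% lower. In KO 4 to KO 6 alone the peroxisomal list had 3 called higher and 2 lower, and the uptake and activation list 2 higher and 4 lower. There the shares of all genes were 22.3% and 20.5%. Among 12 genes of uptake and activation, Slc27a4, a fatty acid transport protein, rose by 0.60 (SE 0.15, adjusted p = 0.0401), with KO 3 at 48.8 CPM inside the WT range of 44.6 to 49.1 CPM and the other KO libraries at 72.8 to 80.8 CPM. It was 0.40 in KO 2 and KO 3 and 0.73 in KO 4 to KO 6. With GC content corrected it was 0.38 (SE 0.11, adjusted p = 0.0653) and no longer called, and it was not called under library-size scaling either. Fabp7, a lipid-binding protein of glia, fell with a log2 fold change of -1.62 (SE 0.33, adjusted p = 0.0237), on 14, 26 and 34 counts in WT and 6 to 10 counts in KO, and it was at -1.51 and -1.70 in the subsets. It was not called without WT 1, WT 2, WT 3, KO 4, KO 5 or KO 6, at -1.84 to -1.39 over the libraries left out singly, and DESeq2 gave it no adjusted p. Fabp5 was at 573 CPM in KO 3 and at 14.4 to 51.3 CPM in the other 7 libraries, and KO 3 is also the library with the high lens sum.

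**Figure D4:**
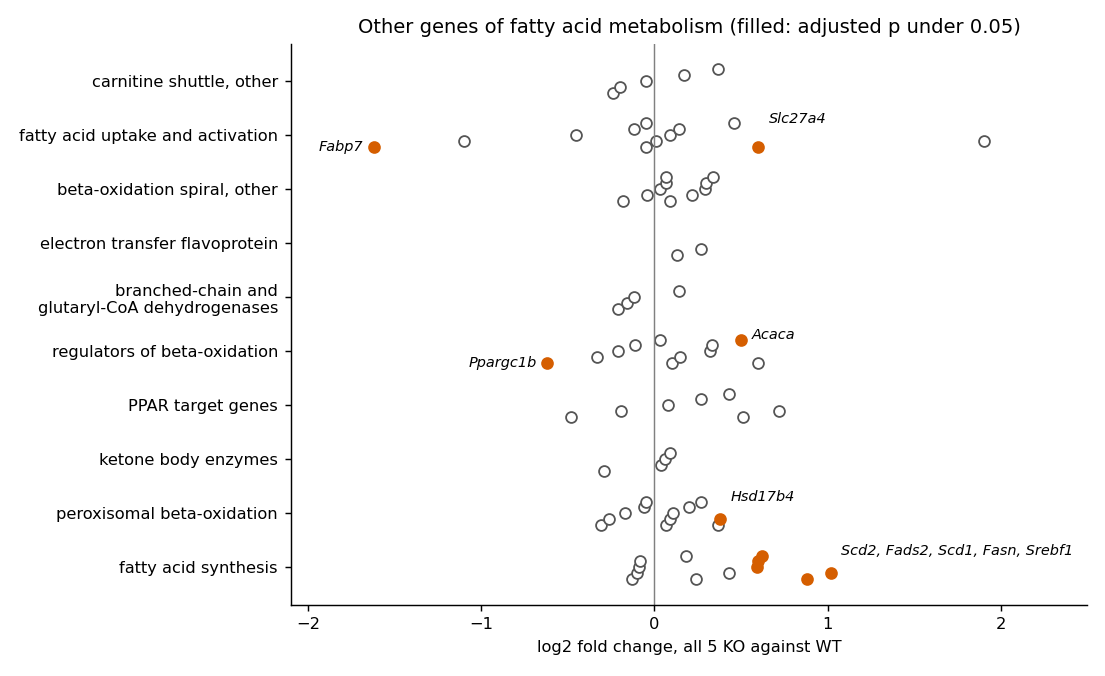
Log2 fold change, all 5 KO against 3 WT libraries, of the tested genes of fatty acid metabolism other than the 10 members, 1 point per gene and 1 row per list. Filled points with names passed an adjusted p of 0.05, and 5 of them are in the fatty acid synthesis row, from 0.59 for Scd2 to 1.02 for Srebf1.

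Marker genes of the cell types were measured beside these values, and their calls stand beside 4.74% of all genes called higher and 2.84% lower. The 8 rod genes summed to 41530 to 45040 CPM in WT and 37200 to 54880 CPM in KO, and 1 of them, Sag (rod arrestin), was called higher at 0.87 (SE 0.16, adjusted p = 0.0169), with every KO library above every WT library. In the KO 4 to KO 6 subset 4 rod genes were called higher and 2 lower, where 22.3% and 20.5% of all genes were. Of 8 Muller glia genes 3 were called higher and 0 lower, with sums of 4017 to 4228 CPM in WT, 6191 CPM in KO 2, 4509 CPM in KO 3 and 4138 to 4690 CPM in KO 4 to KO 6. Of 8 cone genes 1 was called higher and 3 lower, with sums of 961 to 1202 CPM in WT and 694 to 913 CPM in KO. Of 6 microglia genes 2 were called higher, and 0 with GC content corrected, with sums of 22.9 to 25.8 CPM in WT and 28.6 to 40.8 CPM in KO. Of 5 endothelial genes 1 was called higher, with sums of 143 to 149 CPM in WT and 193 to 290 CPM in KO. For microglia and endothelium the sum in every KO library was above that in every WT library. Kdr, the endothelial gene called, made up most of its sum, at 112 to 118 CPM in WT and 163 to 251 CPM in KO. Cldn5, Pecam1, Cdh5 and Tek each overlapped between the groups. The 6 pigment epithelium genes gave 0 calls by edgeR, with sums of 56.05 to 73.2 CPM in WT and 68.8 to 116 CPM in KO. By edgeR 2 were higher at an unadjusted p under 0.05, DESeq2 called 2 higher, and voom called 3 higher and 2 lower. In KO 4 to KO 6 alone Ttr, Lrat and Rgr were called higher, and Rpe65 and Tyrp1 lower. In that subset 5 Muller glia genes were called higher and 0 lower, and 1 cone gene higher and 6 lower. For microglia and for endothelium 3 genes each were called higher and 0 lower there. The 3 of 6 muscle genes in the table summed to 4.26 to 4.94 CPM in WT and 1.69 to 4.95 CPM in KO. Of these, Mb and Ckm were called lower in KO 4 to KO 6 alone. The 1 of 4 fat genes in the table was at most 0.444 CPM. The part of the rod, Muller glia, cone, microglia, endothelial and pigment epithelium shifts, and of the lower mitochondrial share, in the levels of Acadm, Cpt2, Cpt1a and the lipogenic genes was not tested.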

How the data were processed

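Total RNA from 8 mouse retina samples (3 WT, 5 KO, grouped by the genotype in the labels) was sequenced. The deposited table holds estimated counts per gene, in whole numbers, for 26824 genes with at least 16 counts each. Per the submitters' processing notes, Trim Galore, Salmon 1.10.2, DESeq2 and GRCm38 were used. The annotation release and the strand setting are not given in the sources used here, and 22121 gene IDs matched GENCODE M21, the source of gene positions, lengths and GC content.

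Genes were filtered by group with edgeR 4.0.16 (R 4.3.3), scaled by TMM, and tested with the quasi-likelihood test on all 8 libraries without a covariate, with Benjamini-Hochberg adjustment over 20167 genes. The script was tested on simulated data. Alternatives were other scalings and filters, DESeq2 1.42.0, limma 3.58.1 (voom with quality weights), leaving out 1 library or 2 KO libraries, KO 2 and KO 3 alone, a replicate block, and a GC correction. The members and lists were chosen with earlier results of these data known. Named genes were all 10 members, every other pathway gene called, set genes of each role (Slc25a20, Acaa2, Echs1, Etfa, Etfb, Ppara, Ppargc1a, Esrra and Pdk4) and the 5 genes most like Acadm. Fabp5 was named after its values were seen. No protein sequence was used here.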

Additional observations from a re-analysis of the deposited data

Results flagged for a closer look

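Single KO libraries lay far from the other 4 for 2 of 35 genes searched, where the gap to the nearest library took up more than 0.71 of the range of the 5 KO libraries in log2 CPM. Chance gives such a gap in about 1 of 20 groups, or 1.75 of 35. Hadh in KO 2 had a gap of 0.719 of the range, at 17.0 CPM beside 21.0 to 22.8 CPM. Slc27a4 in KO 3 had a gap of 0.792, at 48.8 CPM beside 72.8 to 80.8 CPM.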

How the results depend on the processing

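Over 31 alternatives Acadm, Cpt2 and Cpt1a were higher in KO in every one. Acadm was called in 29, all but the block and no-block fits of WT 2, WT 3, KO 2 and KO 3 (the crossed block called it), Cpt2 in 20 and Cpt1a in 8. The choice of the members favours these calls. All genes called numbered 1529, against 3066 by DESeq2, 8248 by limma voom, 180 in KO 2 and KO 3 alone and 163 there with GC content corrected. Members called numbered 5 by voom and 1 in each KO 2 and KO 3 fit, and other pathway genes 35 by voom and 2 in each KO 2 and KO 3 fit. Leaving out libraries gave 118 to 8416 genes, 1 to 6 members and 0 to 37 other pathway genes. Scaling by library size alone turned the split of 956 higher and 573 lower into 566 and 787, and DESeq2's size factors gave 972 and 536. Replicate numbers 2 and 3 occur in both groups, and the same-numbered libraries' deviations correlated at -0.19. With 2 libraries per group this is 1 contrast across genes, so it cannot settle whether the numbers pair the libraries. With the replicate block the 4 libraries gave 52 genes, 0 members and 0 other pathway genes, and without it 14, 0 and 0. The crossed block, chosen after seeing the data, gave 527, 1 and 2. Directions turned for genes that edgeR did not call over all libraries. Of these, Hadha, Hadhb, Acaa2, Ppargc1a and Etfa were called in KO 4 to KO 6 alone. In KO 2 and KO 3 alone Hadha was 0.05, Hadh -0.09, Acaa2 -0.12, Ppargc1a 0.13 and Esrra -0.07, and with GC content corrected there they were 0.01, -0.12, -0.16, 0.20 and -0.09, with Hadhb at 0.01 and Acadl at 0.03. In the block, no-block and crossed fits Hadha was 0.07, Hadh -0.12, Esrra -0.13 and Etfa -0.01, Acaa2 was -0.24, -0.24 and -0.23, and Ppargc1a was 0.15, 0.16 and 0.15. With GC content corrected over all libraries Acads was -0.03, Hadhb 0.15, Hadh -0.05, Ppargc1a 0.11 and Esrra -0.02. Leaving out libraries gave -0.04 to 0.12 for Hadh, -0.28 to 0.03 for Ppargc1a and -0.03 to 0.15 for Esrra. The cause of these turns was not tested. Acads had the fewest counts of the 10 members, 54 to 84 a library.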
